A study of Saccharomyces cerevisiae with 8 samples.

Results

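Transfer RNAs (tRNAs) are the adaptors that carry amino acids to the ribosome. In budding yeast (Saccharomyces cerevisiae) RNA polymerase III transcribes the nuclear tRNA genes, the ends of the transcript are trimmed, a CCA end is added, many bases are modified, and a synthetase charges the finished tRNA with its amino acid. Most tRNAs are encoded by several near-identical gene copies scattered over the genome. Upf1p, the RNA helicase of nonsense-mediated mRNA decay, acts on mRNAs whose translation has stopped too early. tRNAs are not known as its substrates, and they reach the same ribosomes as the mRNAs that it acts on.

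The tRNA genes described here are those to which the annotation of the array assigned a probe set of exactly 1 gene, where the RefSeq gene table gives that gene the biotype tRNA. The rule found 92 probe sets for 91 genes, out of 9275 tested probe sets and out of 299 tRNA genes in the gene table. HSX1 was the gene with a pair of probe sets. All 91 genes were nuclear. None of the 24 mitochondrial tRNA genes was found by the rule, and no probe set was assigned to several genes with a tRNA among them. The measured genes lay on 13 of the 16 nuclear chromosomes and spanned 71 to 84 bases. Of the 275 nuclear tRNA genes, 61 span more than 84 bases, from 89 to 133, and 0 of these was among the measured genes. Only a locus tag is listed for 72 of the measured genes, and 19 have a standard name. An amino acid is given here for 18 of those names, from general knowledge of yeast. The amino acid of the others, and any tRNA or probe sequence, could not be taken from the tables used here.

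The study compared RNA recovered with Upf1p carrying a TAP tag, an affinity tag that binds IgG (4 arrays), with RNA from mock selections (4 arrays). The replicates of both groups are numbered 1 to 4, and the series describes them as pairs of selections. All cells grew in YEPD, a rich medium, at 30 °C, were ground under liquid nitrogen, and gave a cleared extract that was bound to IgG Sepharose and released with TEV protease. The strain, the genotype of the mock cells and the place of the tag do not appear in the labels used here. An equal amount of tagged and mock RNA went into the last purification, so a ratio concerns the make-up of the recovered RNA. Fewer copies of a tRNA and a larger amount of other RNA beside it cannot be told apart. The NAM7 transcript, which encodes Upf1p, measured 50.5 ± 20.4 on the mock arrays and 14.1 ± 6.24 on the Upf1p-TAP arrays (SD, n = 4).

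The suffix of a probe set name matters for tRNA. Of the 92 probe sets, 75 end in _f_at, the array maker's mark for a family of similar sequences, 13 in _s_at, which marks a sequence shared by several transcripts, and 1 in _i_at. The other 3 are plain. A signal therefore speaks of a group of like tRNAs more than of 1 gene copy, and the probe sets are not independent of each other.

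tRNA signals were lower with Upf1p-TAP than in the mock. Of 92 probe sets, 51 (55.4%) were lower at an adjusted p below 0.05, 0 were higher and 41 did not pass. Over all tested probe sets 13.5% were lower and 17.7% higher. The median log2 ratio of Upf1p-TAP over mock was -0.93 for tRNA, a 1.91-fold lower signal, and 0.00 for all tested probe sets. The log2 ratio was below 0 for 89 of the 92, and the single ratios ran from -2.18 to 0.47. Of the 51, 37 were lower by at least 2-fold, and 50 lay below 0 in all 4 pairs. At an unadjusted p below 0.05 the count of higher tRNA probe sets was also 0. In 34 probe sets (37.0%) the 4 Upf1p-TAP arrays all lay below the 4 mock arrays, against 11.1% of all tested probe sets.

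**Figure D1:**
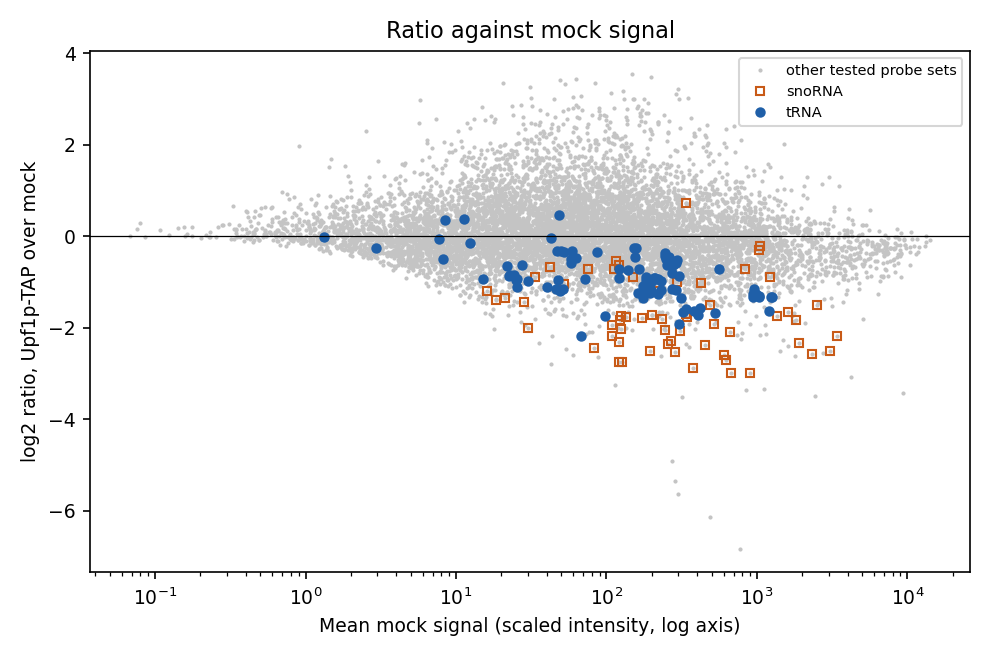
log2 ratio of Upf1p-TAP over mock (vertical axis) against the mean mock signal in scaled intensity units on a log axis, with 1 point per probe set. tRNA probe sets (filled circles) lie below 0 in 89 of 92 cases with a median of -0.93, small nucleolar RNAs (open squares) have a median of -1.78, and all tested probe sets centre on 0.00.

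The difference was seen at most brightness levels. With all tested probe sets divided into 4 equal classes by their mock signal, 32 tRNA probe sets fell in the brightest class, and 20 of them (62.5%) were lower, against 25.3% of the other probe sets there. In the next class 22 of 29 (75.9%) were lower, against 14.8% of the others. In the class below it was 9 of 23 (39.1%) against 8.28%. The dimmest class held 8 tRNA probe sets, of which 0 passed, against 3.98% lower among the others. In those 8 both groups lay below the 25th percentile of all tested values (15.97), where a change would be hard to see. The mock signal is part of the ratio, so these classes are a description. When the mock level came only from pairs other than the one tested, the rank correlation (Spearman) between level and ratio across the 92 tRNA probe sets was 0.01, -0.64, -0.40 and -0.32 in pairs 1 to 4. Across all tested probe sets it was -0.11, -0.15, -0.16 and -0.03.

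The kind of probe set was compared too. Among tRNA probe sets marked as a sequence family 46 of 75 (61.3%) were lower, while 28 of the 511 other probe sets with that mark (5.48%) were lower. Of the 13 shared tRNA probe sets 4 (30.8%) were lower, against 18.4% of the other probe sets with that mark, a smaller gap. Among plain probe sets 13.1% of the others were lower. Of the 3 plain tRNA ones, YNCG0028W was lower (log2 ratio -0.92, SE 0.26, adjusted p = 0.0258), TRR4 had -0.34 and TRT2 had -0.05.

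The size of the difference depended strongly on the pair. The median tRNA signal of the Upf1p-TAP arrays was 124, 49.1, 81.7 and 83.1 in replicates 1 to 4, and that of the mock arrays was 171, 160.3, 127.6 and 229. The highest Upf1p-TAP array, replicate 1, thus came close to the lowest mock array, replicate 3, and the groups did not overlap. tRNA probe sets together held 0.324 ± 0.0798% of the summed signal of an array with Upf1p-TAP and 0.670 ± 0.233% in the mock (SD, n = 4). The median log2 ratio of tRNA was -0.43 in pair 1, -1.50 in pair 2, -0.28 in pair 3 and -1.43 in pair 4. Pairs 2 and 4 had 89 and 90 of the 92 probe sets below 0, and pairs 1 and 3 had 72 and 61.

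**Figure D2:**
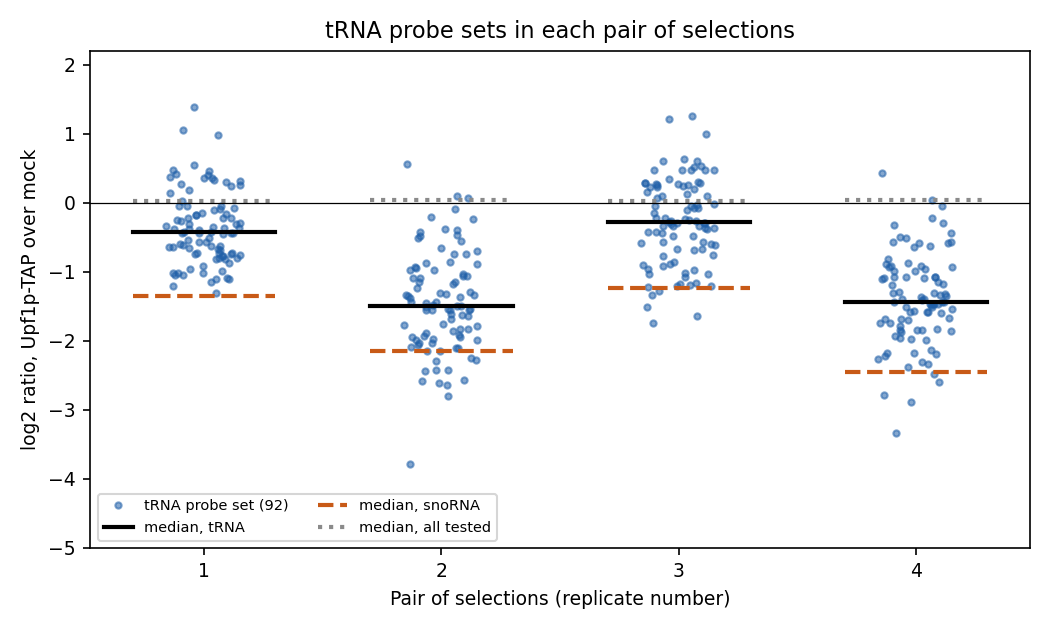
log2 ratio of Upf1p-TAP over mock of each of the 92 tRNA probe sets (points) in each pair of selections, with medians for tRNA (solid), small nucleolar RNA (dashed) and all tested probe sets (dotted). The tRNA median is -0.43, -1.50, -0.28 and -1.43 in pairs 1 to 4 and lies between the other 2 medians in every pair.

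Other structural RNAs and added controls moved with the pair as well. Small nucleolar RNAs, guides for RNA modification, passed as lower in 48 of 59 probe sets (81.4%), against 13.5% of all tested probe sets. Their medians were -1.36, -2.15, -1.23 and -2.46 in pairs 1 to 4. Probe sets of the 4 poly-A spikes, bacterial RNAs used as labelling controls, had medians of -2.004, -2.92, 0.04 and -3.98 (12 probe sets). Hybridization spikes had -0.59, -0.76, -0.65 and -0.81 (9 probe sets). Control probe sets for 18S rRNA had medians of 0.16, -3.01, -0.00 and -0.77 (5 probe sets), and those for 25S rRNA had -0.60, -1.48, -0.40 and -0.16. Pairs 2 and 4 were thus the lowest for tRNA, for small nucleolar RNA, for both kinds of spike and for 18S rRNA, but not for 25S rRNA. The median of all tested probe sets stayed between 0.02 and 0.04. The part of labelling or RNA make-up in the tRNA result was not tested.

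Leaving out pair 4 left 22 tRNA probe sets lower, and leaving out pair 2 left 25, against 51 with all pairs and 46 and 59 without pair 1 or 3. Over all tested probe sets the share lower was 13.5% with all pairs. It was 8.36% without pair 4, 9.18% without pair 2, 9.56% without pair 1 and 10.3% without pair 3. The tRNA count did not always move with that share, since it rose to 59 without pair 3, where the share fell. Of the 51, 21 stayed lower whichever pair was left out. The median log2 ratio was -0.73 without pair 4 and -0.74 without pair 2. No tRNA probe set was called higher in any of these limma fits.

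The lowest ratio belonged to SUP51, a leucine tRNA gene. Its signal was 36.5, 2.203, 6.44 and 11.6 with Upf1p-TAP in replicates 1 to 4, and 59.1, 83.1, 25.8 and 104 in the mock. Each pair was lower with the tag, while the groups overlapped, since the Upf1p-TAP array of replicate 1 lay above the mock array of replicate 3. SUP51 gave a log2 ratio of -2.18 (SE 0.44, adjusted p = 0.00574), which ran from -3.79 to -0.64 over the pairs. The mean Upf1p-TAP signal of SUP51 (14.2) lay below the 25th percentile of all tested values, and the added offset therefore weighs on how large its ratio is.

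YNCL0044W had the smallest p-value of the tRNA probe sets and was bright. Its signal was 490, 336, 218 and 507 with Upf1p-TAP and 1002, 1347, 742 and 1712 in the mock. All 4 Upf1p-TAP arrays were below all 4 mock arrays. YNCL0044W thus gave a log2 ratio of -1.63 (SE 0.20, adjusted p = 5.31e-04). Its largest adjusted p over the alternatives was 0.00363, without replicate 4. YNCJ0006W, brightest of the tRNA genes with Upf1p-TAP, had 732, 511, 203 and 604 against 1458, 1318, 640 and 1510 in the mock. Its groups overlapped through the high Upf1p-TAP array of replicate 1 and the low mock array of replicate 3, and its log2 ratio was -1.33 (SE 0.18, adjusted p = 8.01e-04).

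Several genes of 72 bases moved almost in parallel over the 8 arrays. YNCB0013W, YNCC0010C, YNCD0016C and YNCE0014W lie on 4 chromosomes, and every 2 of them correlated at 0.95 or above in log2 signal. Probe sets of equal span were grouped by this correlation over all 8 arrays, which includes the difference between Upf1p-TAP and mock. Similar ratios within a group are therefore partly fixed by the grouping. YNCB0013W had 214, 91.3, 115.6 and 193 with Upf1p-TAP and 496, 401, 276 and 918 in the mock, with no overlap of the groups. The log2 ratios of these 4 genes lay between -1.73 and -1.55, and each was below 0 in all 4 pairs. A second such group, YNCE0012W, YNCJ0002C, YNCK0005C and YNCP0004C, had ratios between -1.33 and -1.26. YNCP0004C, the brightest in the mock, had 544, 338, 393 and 553 with Upf1p-TAP and 702, 1661, 667 and 2010 in the mock. Its mock arrays fell into a low pair of replicates (1 and 3) and a high pair (2 and 4), whereas its Upf1p-TAP arrays stayed close together. YNCD0009W (-1.65), YNCD0014C (-1.36) and YNCE0008C (-1.90) formed another group, and YNCE0008C ran from -3.33 in pair 4 to -0.42 in pair 1. By this rule the 92 probe sets fell into 64 groups of equal span, of which 49 held a single probe set.

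**Figure D3:**
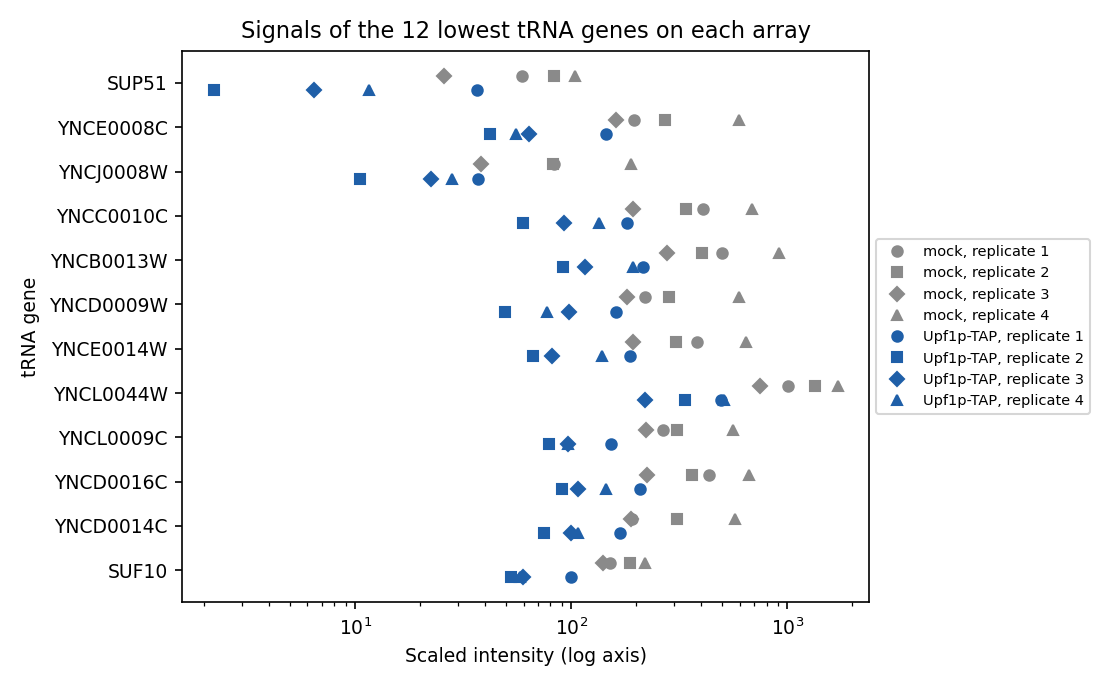
Scaled intensity (log axis) on each of the 8 arrays for the 12 tRNA genes with the lowest log2 ratio among those that passed the test with 1 direction in all pairs; marker shape gives the replicate, grey the mock and blue Upf1p-TAP. In 11 of the 12 genes all Upf1p-TAP arrays lie below all mock arrays, SUP51 being the exception, and the mock array of replicate 4 is the highest in every gene.

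The remaining genes of the 12 lowest were YNCJ0008W (-1.73, 73 bases), YNCL0009C (-1.58) and SUF10 (-1.34), a proline tRNA gene. SUF10 had 99.3, 52.3, 59.6 and 57.9 with Upf1p-TAP and 150.2, 187, 140.2 and 218 in the mock, with no overlap. YNCB0018W (-1.26) and YNCC0001C (-1.16) were also among the brightest. Their calls ended when pair 2 or pair 4 was left out (largest adjusted p 0.0819 without replicate 4 and 0.146 without replicate 2), and that of YNCC0001C also ended without the intensity trend. The call ended without pair 2 or 4 as well for YNCJ0002C (largest adjusted p 0.0577, without replicate 4) and YNCD0014C (0.0676, without replicate 4), and YNCK0005C lost its call without replicate 4 (0.0503).

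Genes of different length differed in their counts. Cytosolic tRNAs for leucine and serine are the long ones, with an extra arm. Of the 13 probe sets for genes of 82 to 84 bases 11 (84.6%) were lower, against 13.5% of all tested probe sets. Their median was -1.08, with medians of -0.68, -1.55, -0.43 and -1.47 in pairs 1 to 4. SUP51 and the serine tRNA genes SUP16 and SUP19 are in this class. Of the 67 with 72 to 74 bases 39 (58.2%) were lower, with a median of -0.94. Of the 12 with 71 bases 1 (8.33%) was lower, SUF23, no more than the share of all tested probe sets, and the median was -0.55. This short class, which holds the glycine tRNA genes SUF16 and SUF17, went in opposite directions in the pairs, with medians of 0.28, -1.45, 0.21 and -1.07 in pairs 1 to 4. In pairs 2 and 4 all 12 were below 0, and in pairs 1 and 3 it was 4 of 12 in each. Probe sets within a length class are not independent where gene copies are alike, and the difference between the classes was not tested.

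**Figure D4:**
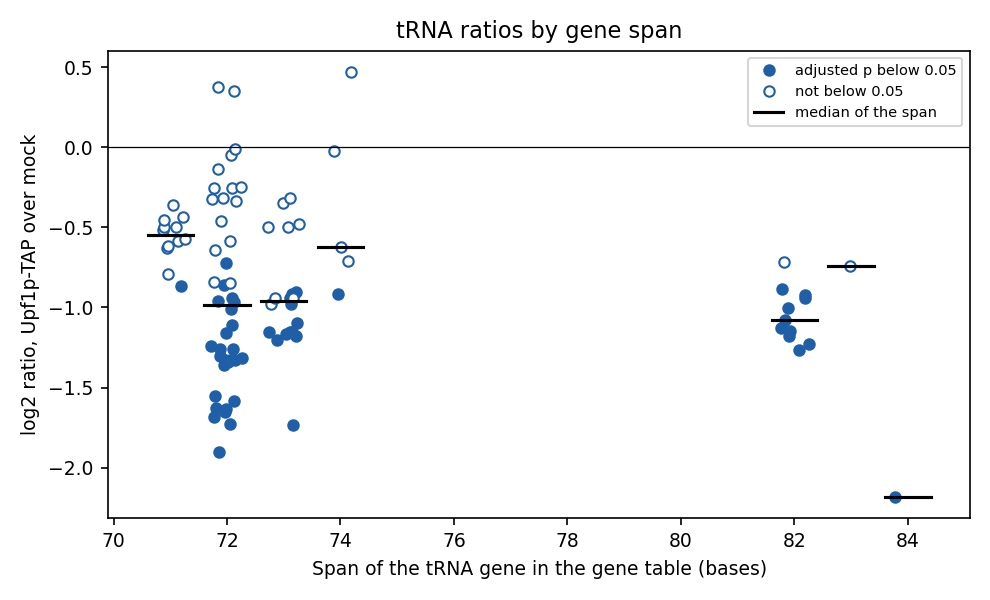
log2 ratio of Upf1p-TAP over mock for each tRNA probe set against the span of its gene in bases; filled points have an adjusted p below 0.05 and bars are medians. Genes of 71 bases cluster near their median of -0.55 with 1 of 12 filled, while 10 of the 11 genes of 82 bases are filled.

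The genes with a standard name allow a view by amino acid, and most were named after their values were seen. Of the 19 probe sets with a known amino acid 4 (21.1%) were lower, against 13.5% of all tested probe sets. Of the 73 tRNA probe sets without one 47 (64.4%) were lower. Of the 8 tRNA probe sets in the dimmest mock class, of which 0 passed, all except YNCJ0001C have a known amino acid. These shares thus compare probe sets of unlike brightness. Both genes to which proline was assigned here, SUF2 and SUF10, were lower. SUF2 had 113, 46.7, 74.9 and 42.1 with Upf1p-TAP and 144, 170.0, 113.7 and 218 in the mock, without overlap, and a log2 ratio of -1.24 (SE 0.33, adjusted p = 0.0184). Its call ended without replicate 2 or 4 (largest adjusted p 0.0859, without replicate 4). Among the genes to which serine was assigned here SUP19 was lower (-0.88, SE 0.21, adjusted p = 0.0118). SUP19 lost its call without replicate 2 (adjusted p = 0.0609), while SUP16 had -0.72 (adjusted p = 0.0835). SUF23, for which no amino acid is given here, was lower (-0.87, SE 0.22, adjusted p = 0.0168). The call of SUF23 ended without replicate 2, 3 or 4 and without the pair as a block (adjusted p = 0.0789).

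None of the 6 genes to which glycine was assigned here passed the test. This holds only for the assigned names, since SUF23, of the same span as SUF16 and SUF17 and lower, has no amino acid assigned here. SUF17 had 267, 124, 245 and 139.5 with Upf1p-TAP against 206, 323, 200.4 and 305 in the mock, so that it was higher with the tag in pairs 1 and 3 and lower in pairs 2 and 4. SUF16 showed the same signs, with ratios of 0.47, -0.98, 0.16 and -1.09. Its mean log2 ratio was -0.36 (SE 0.29). SUF1 (-0.32), SUF6 (-0.31), SUF3 (-0.13) and SUF5 (0.35) had SEs of 0.22 to 0.36. SUF5 was above 0 in all 4 pairs, but dim, with signals of 4.70 to 16.5 with Upf1p-TAP and 3.15 to 12.2 in the mock, which overlap.

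The 2 genes to which methionine was assigned here, which serve initiation and elongation, were both dim. IMT3, an initiator gene, had 19.01, 8.55, 19.5 and 13.1 with Upf1p-TAP and 7.63, 9.43, 5.82 and 22.5 in the mock. The groups overlapped, and the log2 ratio was 0.38 (SE 0.33, adjusted p = 0.418). EMT5, an elongator gene, had a ratio of -0.50 (SE 0.37). CDC65 for glutamine (-0.59, adjusted p = 0.0888) and TGA1 for alanine (-0.50, adjusted p = 0.107) lay below 0 in all 4 pairs without passing. The arginine genes TRR4 (-0.34) and HSX1 (-0.26 and -0.01 on its probe sets) and the threonine gene TRT2 (-0.05) did not pass. Both HSX1 probe sets had mean signals between 1.29 and 2.95, below the offset of 4.09, so no size of change is read from them. The highest ratio of all was that of YNCK0003W (0.47, SE 0.34, adjusted p = 0.326), which was above 0 in pairs 1 and 3 and below 0 in pairs 2 and 4.

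**Figure D5:**
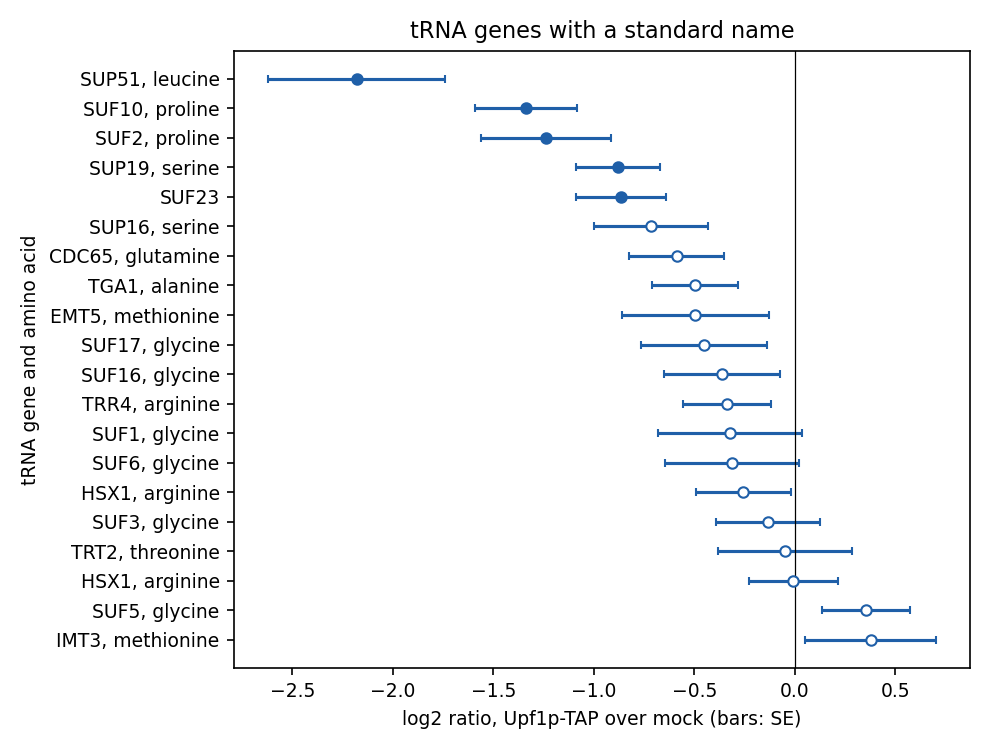
log2 ratio of Upf1p-TAP over mock with its standard error for the tRNA probe sets of genes with a standard name, each with the amino acid of the tRNA where one is given; filled points have an adjusted p below 0.05. SUP51, SUF10, SUF2, SUP19 and SUF23 are filled, and SUF5 and IMT3 have the highest ratios, 0.35 and 0.38.

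Genes that lie beside the tRNA genes were compared as well. The nearest measured genes on either side of the 91 tRNA genes, 182 neighbours in all and counted once per tRNA gene, were lower in 16.5% and higher in 19.2% of cases, near the 13.5% and 17.7% of all tested probe sets. Of the 51 tRNA genes that were lower, 19 (37.3%) had a neighbour that was lower and 12 had one that was higher. Of the 40 other tRNA genes 9 (22.5%) had a lower neighbour and 17 a higher one, and these differences were not tested. A tRNA gene counts here if the neighbour on either side was called. The shares of single probe sets are therefore no background for these counts. Across the 91 tRNA genes the ratio of the tRNA and the mean ratio of its neighbours correlated weakly (Pearson 0.21, Spearman 0.26), a description over genes that share probes and arrays.

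Genes whose products make, modify, charge and degrade tRNA showed no common direction when all lists were pooled, with the scaling as deposited. The lists differed: all called genes of cytosolic charging were lower, while modification had more genes higher than lower. Of 148 measured genes on 8 lists, 23 (15.5%) were lower and 22 higher, near the shares of all tested probe sets, with a median log2 ratio of -0.10. Centring each array on its median shifted the median over all tested probe sets from 0.00 to -0.11 and the percentages lower and higher over all tested probe sets to 18.4% and 14.1%. The pathway counts then became 38 lower and 17 higher of 148, so the balance of the pooled lists depended on the scaling. Without the pair as a block 18 were lower and 14 higher, against 10.0% and 14.4% of all tested probe sets.

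In transcription by RNA polymerase III, 2 of 19 genes (10.5%) were lower and 1 (5.26%) higher, against 13.5% and 17.7% of all tested probe sets. RPO31, the largest subunit of the enzyme, had 50.01, 71.2, 59.5 and 33.8 with Upf1p-TAP and 120.3, 125.0, 154 and 128 in the mock. Its log2 ratio was -1.27 (SE 0.23, adjusted p = 0.00319) without overlap of the groups. TFC7 (-0.92), a subunit of the initiation factor TFIIIC, was lower and lost its call without replicate 1 (adjusted p = 0.0609), and MAF1 (0.76), which encodes the repressor of the polymerase, was higher. The call of MAF1 ended without replicate 1, 2 or 4 and after quantile normalization (largest adjusted p 0.165, without replicate 4). RPC82 had -0.70 (adjusted p = 0.0761).

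In tRNA end processing, 2 of 15 (13.3%) were lower and 3 (20%) higher, near the 13.5% and 17.7% of all tested probe sets. RPR1, the RNA component of RNase P, which cuts the leader off tRNA precursors, had 557, 188, 234 and 232 with Upf1p-TAP and 1296, 2229, 697 and 2260 in the mock. Its groups did not overlap, and the ratio was -2.39 (SE 0.37, adjusted p = 0.00157). The transcripts of the RNase P proteins POP3 (1.10) and POP1 (0.89) were higher, as was that of RPR2 (1.54, adjusted p = 0.0112), which was named after its values were seen. The call of RPR2 ended without replicate 4 (adjusted p = 0.0511). POP4, POP5, POP6, POP7, POP8 and RPP1, also RNase P proteins, did not pass, with ratios from -0.47 to 0.34. The call of POP1 ended without replicate 2 or 4 (largest adjusted p 0.0547, without replicate 4). RPM2 (-1.26), the protein of mitochondrial RNase P, was lower. In tRNA splicing, 1 of 6 (16.7%) was higher, near the 17.7% of all tested probe sets, and 0 were lower. This was SEN54 (0.81), a subunit of the splicing endonuclease. Its call ended under 6 alternatives (largest adjusted p 0.168, without replicate 4). SEN2 (0.69), TPT1 (-0.57) and TRL1 (-0.74) had adjusted p-values of 0.0511, 0.0534 and 0.0573.

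Modification enzymes formed the longest list. Of 58 measured, 16 (27.6%) were higher and 5 (8.62%) lower, against 17.7% and 13.5% of all tested probe sets, with a median of 0.19. After median centring 12 were higher and 11 lower, and the median was 0.04. TRM5, a methyltransferase that acts beside the anticodon, had 175, 512, 752 and 528 with Upf1p-TAP and 71.8, 113.7, 129.6 and 94.1 in the mock. Its log2 ratio was 2.08 (SE 0.25, adjusted p = 3.86e-04) without overlap. SLM3 (1.96), which thiolates mitochondrial tRNAs, TRM1 (1.45), a guanine methyltransferase, and RIB2 (1.17), a pseudouridine synthase that also serves riboflavin synthesis, were higher. Without replicate 4 the list had 9 genes higher, and without replicate 1, 2, 3 or 4 it had 2 lower in each case.

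The list of cytosolic charging holds the synthetase genes and ARC1 (-0.20), a cofactor that did not pass. Of its 22 genes 12 (54.5%) were lower and 0 higher, against 13.5% and 17.7% of all tested probe sets, with a median of -0.56. VAS1, the valine enzyme, had 193, 133, 286.5 and 159 with Upf1p-TAP and 576.5, 385.5, 696 and 456 in the mock. Its log2 ratio was -1.46 (SE 0.18, adjusted p = 5.22e-04) without overlap. THS1 (-1.20), ILS1 (-1.18) and HTS1 (-1.11), for threonine, isoleucine and histidine, were lower. Of the 14 mitochondrial synthetases 1 (7.14%) was lower, MSY1 (-0.94) for tyrosine, and 0 were higher, with a median of 0.03 (-0.11 after median centring). Without replicate 4 the count was 0. MSE1 (-0.48), AIM10 (-0.42) and MSR1 (0.32) did not pass.

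None of the 4 nuclear transport genes passed, although LOS1 (-0.89), the main tRNA exportin, MTR10 (-0.67), MSN5 (-0.57) and CEX1 (-0.10) all lay below 0. After median centring or quantile normalization 3 of the 4 were lower. In decay and surveillance, 1 of 10 (10%) was lower and 1 (10%) higher, against 13.5% and 17.7% of all tested probe sets. MTR4 (-1.31), a helicase of the nuclear exosome, was lower, and AIR1 (0.88), a partner of it in the TRAMP complex, was higher. The call of AIR1 ended without replicate 1 or 4 and without the pair as a block (largest adjusted p 0.0869, without replicate 4). RRP6 (-0.61) and RAT1 (-0.42), both exonucleases, did not pass.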

How the data were processed

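Intensity values of 8 arrays (Affymetrix Yeast Genome S98) were used as the authors deposited them, on a linear scale with 9335 probe sets. The submitters' processing notes name GCOS, with no version. The values had been scaled before deposit: the mean of each array, trimmed by 2% at each end, lay between 249.8 and 249.9. An intensity is not a number of molecules, and precision is limited by having 4 arrays in each group.

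Without the control probe sets 9275 were tested. Values were taken as log2(intensity + 4.09), where 4.09 is the 10th percentile of the tested intensities, so fold changes of dim probe sets are understated. A linear model with terms for group and pair (a block) was fitted to all 9275 with limma 3.58.1 (R 4.3.3), with an intensity trend in the variance. Tests were two-sided, Benjamini-Hochberg adjusted over the 9275, and called below 0.05. Standard errors (SE) are the moderated ones. The fit was tested on simulated data. The pair comes from the series' own text. Over the 4638 brighter probe sets, same-numbered arrays correlated in their deviations from the group means at 0.18 to 0.55, and arrays of different number at -0.54 to 0.35, a range that overlaps it. No source says whether cultures were separate, so the p-values reflect only how far these selections differ, which may be technical.

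A pathway gene was shown by 1 probe set, a plain one before a shared one, then the brightest. The members and lists were chosen with earlier results of these data known. Named by rule were the 12 lowest ratios among called tRNA probe sets with 1 direction in all pairs and the 6 brightest in each group. Up to 4 genes of each list with the smallest p were also named by rule. The plan also held up to 12 highest ratios among called tRNA probe sets, and none was named for that reason. Grouping by anticodon was not possible from the tables used here, so standard names and gene span were used instead, and standard names and the 3 highest ratios were added after values were seen. Alternatives changed the offset, the scaling, a filter on dim probe sets, the block, the trend, the kind of probe set, and left out each pair.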

Additional observations from a re-analysis of the deposited data

Results flagged for a closer look

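In 7 of 78 groups of 4 arrays that were examined, 1 array stood far from the other 3 on the log2 scale, measured as the gap to its nearest neighbour over the whole range of the group. Chance gives about 1 such group in 20. With Upf1p-TAP, SUF16 was high in replicate 1 (238 against 156 to 164 in the others, gap 0.881), YNCC0001C was low in replicate 2 (212 against 465 to 483.5, gap 0.952), YNCJ0002C was low in replicate 2 (249.9 against 420.5 to 468, gap 0.830), and HSX1 (its _f_at probe set) was high in replicate 3 (5.09 against 0.411 to 0.561, gap 0.954), at a level near background. In the mock, CDC65 was high in replicate 1 (71.8 against 52.5 to 55.1, gap 0.850), TRR4 was high in replicate 1 (70.4 against 45.5 to 46.7, gap 0.943), and YNCJ0006W was low in replicate 3 (640 against 1318 to 1510, gap 0.842).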

How the results depend on the processing

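The count of lower tRNA probe sets lay between 42 and 56 under no offset, a higher offset, quantile normalization, median centring, the filter on dim probe sets, no intensity trend and no replicate block, against 51. Over all probe sets in these fits the share lower ran from 10.0% without the block to 18.4% after median centring, against 13.5%. The filter kept 7318 probe sets, of which 84 were tRNA, and 55 of the 84 were lower. Leaving out each pair gave 22 to 59 tRNA probe sets lower, with the low values without replicate 2 or 4, and a median log2 ratio of -1.11 to -0.73. The share lower over all tested probe sets was then 8.36% to 10.3%. Plain probe sets left 1 lower of 3, with a median of -0.34. The count of higher tRNA probe sets was 0 under each of these. Without the replicate block, where the pairing is ignored, 42 tRNA probe sets were lower. Of the 148 pathway genes 38 were lower and 17 higher after median centring, against 18.4% and 14.1% of all tested probe sets. After quantile normalization 37 were lower and 16 higher, against 15.7% and 15.5% of all tested probe sets. The median log2 ratio of the pathway genes became -0.24 after median centring and -0.20 after quantile normalization. Without the replicate block the pairing-free count of higher pathway genes was 14 against 22. Leaving out each pair gave 17 to 18 pathway genes lower, 10 to 19 higher, and a median of -0.13 to -0.07. Over all tested probe sets 8.36% to 10.3% were then lower and 11.6% to 14.9% higher. Of 752 values of single tRNA probe sets and pathway genes under the alternatives, 34 lost the call, 25 gained it and 693 kept their side of the threshold; 12 of the losses were without replicate 4 and 10 without replicate 2. The causes were not tested. Dim probe sets limit the result, since 0 of the 8 tRNA probe sets below the 25th percentile in both groups passed.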
